A study of Mus musculus with 11 samples.

Results

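The genes described here are 36 genes whose transcripts are made by dividing cells, 12 of the S phase, in which DNA is copied, and 24 of G2 and mitosis (G2/M), in which the copied chromosomes are separated. They were named by gene symbol as a textbook set, with earlier results of these data known, and all 36 are listed among the 54532 genes of the pancreas table and the 46078 genes of the adipose table. RNA sequencing counts of 11 libraries were compared between control mice and mice with alcohol-induced acute pancreatitis on a background of obesity (OA-AP), named Control and Model in the labels. All mice were wild type C57BL/6J males, given as C57BL/6 in the labels, 4 to 5 weeks old when the diets began and labelled as 16 weeks old at sampling. Controls ate a diet with 10 kcal% fat for 12 weeks and were then injected with saline. OA-AP mice ate a diet with 60 kcal% fat for the same 12 weeks and received 2 intraperitoneal injections of ethanol at 2 g/kg, 1 h apart, and the tissues were taken 12 h after the first. Obesity, ethanol and pancreatitis therefore cannot be told apart in any difference given here. The pancreas was sequenced from 2 control and 3 OA-AP samples and the epididymal adipose tissue from 3 and 3.

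Cell division genes come in waves. In S phase the MCM helicase opens the double helix, the sliding clamp PCNA holds the polymerases on the template and ribonucleotide reductase makes the DNA building blocks, and these genes are mostly switched on by E2F factors. The G2/M genes, which encode the mitotic cyclins and kinases, the kinetochore, the spindle motors and the spindle checkpoint, are repressed in resting cells by the DREAM complex and activated by the MMB and FOXM1 factors through CCAAT boxes and CHR elements in their promoters. Acinar cells of the adult pancreas and mature adipocytes hardly divide, so that in both tissues low levels of these transcripts are usual, and in adipose tissue macrophages, lymphocytes, endothelial cells and progenitors also contribute them.

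The promoters of 6 members are shown because the results below turn on Rrm2, Mcm7, Cdc25b and Aurka, while Mcm6 and Kif11 carry the clearest examples of the S phase and the G2/M pattern. Each line gives the 250 bases before the RefSeq start site on GRCm38.p6, 5′ to 3′ on the strand of the gene. Capitals mark E2F motifs (TTTGGCGC, TTTCCCGC, TTTCGCGC or TTTGCCGC), CCAAT boxes (CCAAT) and CHR elements (TTTGAA or TTTAAA) on either strand.
Rrm2 (chr12:24708004-24708253, plus strand): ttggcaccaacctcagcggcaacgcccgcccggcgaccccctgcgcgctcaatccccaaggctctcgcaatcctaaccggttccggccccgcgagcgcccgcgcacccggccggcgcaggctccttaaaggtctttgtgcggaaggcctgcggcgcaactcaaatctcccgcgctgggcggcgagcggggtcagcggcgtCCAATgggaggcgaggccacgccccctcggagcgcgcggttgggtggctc
Mcm7, first of 2 start sites (chr5:138171884-138172133, minus strand): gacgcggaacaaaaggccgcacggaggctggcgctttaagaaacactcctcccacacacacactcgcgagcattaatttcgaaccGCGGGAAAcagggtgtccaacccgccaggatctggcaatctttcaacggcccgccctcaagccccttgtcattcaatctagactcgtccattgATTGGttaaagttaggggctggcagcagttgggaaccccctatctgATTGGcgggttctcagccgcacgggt
Mcm6 (chr1:128359706-128359955, minus strand): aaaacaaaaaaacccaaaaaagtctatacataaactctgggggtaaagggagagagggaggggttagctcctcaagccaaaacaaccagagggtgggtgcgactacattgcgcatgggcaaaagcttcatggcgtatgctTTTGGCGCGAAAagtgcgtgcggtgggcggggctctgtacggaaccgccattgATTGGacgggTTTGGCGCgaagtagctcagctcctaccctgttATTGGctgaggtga
Cdc25b (chr2:131186698-131186947, plus strand): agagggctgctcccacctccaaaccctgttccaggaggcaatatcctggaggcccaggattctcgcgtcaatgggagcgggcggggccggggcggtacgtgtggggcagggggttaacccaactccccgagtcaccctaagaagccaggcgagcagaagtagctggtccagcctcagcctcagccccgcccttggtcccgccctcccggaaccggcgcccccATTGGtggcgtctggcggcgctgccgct
Aurka (chr2:172370571-172370820, minus strand): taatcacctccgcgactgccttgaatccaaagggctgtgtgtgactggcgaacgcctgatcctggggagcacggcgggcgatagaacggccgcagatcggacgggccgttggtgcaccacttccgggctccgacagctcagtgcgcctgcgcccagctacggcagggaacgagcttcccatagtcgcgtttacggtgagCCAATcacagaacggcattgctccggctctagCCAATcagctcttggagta
Kif11 (chr19:37376132-37376381, plus strand): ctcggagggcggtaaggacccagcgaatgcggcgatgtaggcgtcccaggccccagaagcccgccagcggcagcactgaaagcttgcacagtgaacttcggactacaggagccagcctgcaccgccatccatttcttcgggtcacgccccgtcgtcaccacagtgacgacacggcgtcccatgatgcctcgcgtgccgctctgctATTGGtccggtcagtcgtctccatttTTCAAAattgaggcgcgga

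Over the window from 250 bases before to 50 after the start, 29 of the 36 members have a promoter sequence here, 10 of S phase and 19 of G2/M. A CHR element was present in 16 of the 19 G2/M promoters (84.2%), in 4 of the 10 S phase promoters (40.0%) and in 30.6% of the promoters of all 27025 genes. A CCAAT box was found in 17 of the 19 G2/M promoters (89.5%) and in 8 of the 10 of S phase (80.0%), against 41.1% of all genes. The E2F motif was found in 5 of the 10 S phase promoters and in 1 of the 19 of G2/M (5.3%), that of Cdk1, against 2.6% of all genes. Each motif was counted on its own, and E2F matches on opposite strands can overlap, as the first pair in Mcm6 does. Mcm6 holds 3 E2F matches and 2 CCAAT boxes in the bases shown, while Kif11 holds a CHR element 19 bases before its start and a CCAAT box 45 bases before it. Rrm2 and Aurka have their CHR matches after the start, outside the bases shown, and Cdc25b has a single CCAAT box 28 bases before its start and no CHR match. These matches are descriptions of sequence and do not show that a factor binds.

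The pancreas libraries held 14188832 to 17238919 counts on genes and the adipose libraries 20825177 to 27928097. CPM stands for the counts of a gene relative to its library's total, after scaling by edgeR's TMM factors in each tissue apart. A gene was called raised or lowered where edgeR's quasi-likelihood test, adjusted by Benjamini-Hochberg over all genes tested in that tissue, gave an adjusted p under 0.05 and the fold change was at least 1.5. A count of 3 in a library, taken as the lowest level that can be told from 0, corresponds to 0.157 to 0.299 CPM in the pancreas and 0.102 to 0.156 CPM in adipose tissue. The labels fit the tissues: 15 acinar markers took 42.8% to 56.0% of the pancreas counts, and 10 adipocyte markers summed to 36198 to 45905 CPM in adipose tissue. Adipose control 2 stood apart, with 0.686% of its counts on the acinar markers against at most 0.00177% in the other adipose libraries, and results that rest on it are given without it below.

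In the pancreas, Rrm2 rose and no other proliferation gene was called. Of the 36 members, 13 passed the filter on low counts, 9 of S phase and 4 of G2/M. Rrm2 was the 1 member raised (7.69% of the 13), where 16.2% of all 12884 genes tested were raised, and 0 members were lowered, where 13.5% of all genes were. At an unadjusted p under 0.05 there were 2 members higher and 0 lower in the pancreas, 15.4% of the members tested against 44.8% of all genes, and DESeq2 also called 1 raised (Rrm2) and 0 lowered. All OA-AP libraries lay above both controls for 4 of the 13 members and below both for 1 (7.69%). Among all 12884 genes tested, 4238 lay above in this way and 3794 (29.4%) below. A lack of overlap is thus common in this tissue. In bulk tissue, fewer cells of a type and less RNA per cell cannot be told apart.

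Rrm2 encodes the small subunit of ribonucleotide reductase, the enzyme that limits the supply of deoxynucleotides (ENSMUSG00000020649, chromosome 12 of GRCm38, 24708241 to 24714146). Its level was 3.09 and 2.99 CPM in the control pancreas and 10.8, 8.52 and 9.20 CPM in the OA-AP pancreas. Every OA-AP library was above both controls, and the groups were far apart compared with the spread within them. The log2 fold change was 1.64 (standard error 0.22, 95% interval 1.13 to 2.15, adjusted p = 0.00134 by edgeR's quasi-likelihood test). The call stood in each of the 5 fits that left out 1 library, at log2 fold changes of 1.53 to 1.71. Rrm1, the large subunit of the same enzyme, was measured at 2.92 and 2.19 CPM in controls and at 3.78, 2.86 and 1.78 CPM in OA-AP. These ranges overlapped, and the log2 fold change of Rrm1 was 0.13 (95% interval −0.78 to 1.04). Tk1, the thymidine kinase of the salvage route, lay between 1.20 and 2.79 CPM in all 5 libraries with a log2 fold change of −0.36 (adjusted p = 0.546 by the same edgeR test).

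The MCM genes encode the 6 subunits of the replicative helicase, and 5 of them were tested in the pancreas. Mcm7 (ENSMUSG00000029730, chromosome 5, 138164583 to 138172422) was measured at 5.41 and 4.79 CPM in controls and at 7.51, 6.01 and 10.1 CPM in OA-AP. All OA-AP libraries were above both controls, but the log2 fold change of 0.63 (standard error 0.27) did not pass (adjusted p = 0.106 by edgeR's quasi-likelihood test). Leaving out 1 library moved it between 0.36 (without OA-AP 3, adjusted p = 0.227) and 0.78 (without OA-AP 2, adjusted p = 0.0452, both by edgeR), and only the latter fit of the 5 passed.
Mcm3 was at 0.943 and 0.399 CPM in controls and at 0.998, 1.14 and 2.09 CPM in OA-AP, again without overlap. Its log2 fold change was 1.04 (standard error 0.58, adjusted p = 0.198 by the same edgeR test), 1.81 without control 1, 0.58 without control 2 and 0.59 without OA-AP 3. Mcm2 lay the other way, at 4.20 and 4.59 CPM in controls and 3.05, 2.29 and 3.82 CPM in OA-AP, and its difference on the log2 scale was −0.52 (standard error 0.30, adjusted p = 0.213 by the same edgeR test). Mcm2 passed the thresholds without OA-AP 3, at −0.76 (adjusted p = 0.0484 by the same edgeR test). Mcm4 and Mcm6 had log2 fold changes of −0.09 and −0.27, and Mcm5 had 3 to 12 counts per library and was not tested.

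Pcna, the sliding clamp, had the highest level per length among the 36 genes in the control pancreas, at 3.46 CPM per kb of transcript, followed by Mcm7 at 1.15 and Rrm2 at 1.10 CPM per kb. In the OA-AP pancreas Rrm2 reached 3.43 CPM per kb, next to Pcna at 3.92 CPM per kb. Pcna itself was at 7.64 and 8.97 CPM in controls and 10.2, 9.38 and 8.68 CPM in OA-AP, which overlapped, with a log2 fold change of 0.18 (95% interval −0.24 to 0.60). Summed over the 12 S phase genes, the level was 30.4 and 33.7 CPM in controls and 43.1, 35.4 and 42.8 CPM in OA-AP, with every OA-AP library above both controls. Rrm2 and Mcm7 are within these sums, and only Rrm2 was called. Of the 9 S phase genes tested, 5 had a log2 fold change above 0 and 4 below, with a median of 0.13. The sums therefore do not show a rise of the S phase genes as a group.

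The G2/M genes were close to the detection limit in the pancreas. Of the 24, 20 did not pass the filter, and together with the 3 untested S phase genes they summed to 46 to 97 counts per library. Aurkb, the kinase of the chromosomal passenger complex, had 0 counts in the 2 control libraries, 0 in OA-AP 1 and OA-AP 2 and 1 in OA-AP 3. Mki67, the Ki-67 gene widely used as a proliferation marker and named here after its values were seen, had 2 and 5 counts in controls and 13, 3 and 13 in OA-AP, and Top2a, chosen likewise, had 6 and 7 against 20, 3 and 2. Prc1, which bundles the microtubules of the central spindle, had 2 and 4 counts in controls and 18, 10 and 8 in OA-AP (log2 fold change 1.19, standard error 0.73, adjusted p = 0.240 by edgeR's quasi-likelihood test). The 4 tested G2/M genes, Mki67, Cdk1, Bub1b and Prc1, had at most 5 counts in a control library and entered the test through the OA-AP libraries, so their log2 fold changes of 0.65 to 1.19 are no evidence of a direction for the group. The summed level of all 24 was 4.03 and 8.08 CPM in controls and 6.93, 3.89 and 4.97 CPM in OA-AP, and these ranges overlapped. This sum rests on 47 to 132 counts per library, and how large a change could have been detected was not tested. Of the untested G2/M genes, Aurka had 9 and 10 counts in controls and 7, 3 and 3 in OA-AP, the OA-AP libraries all being lower.

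**Figure D1:**
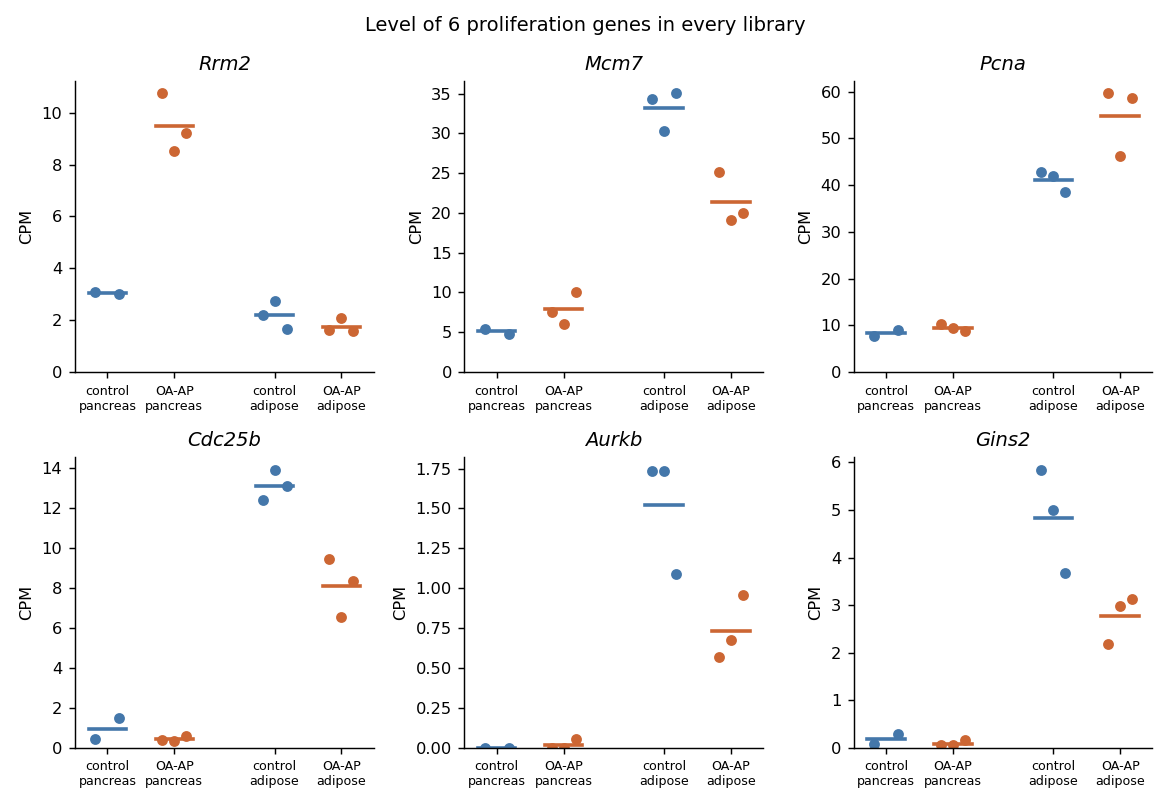
CPM (y axis, from 0) of 6 proliferation genes in every library of the pancreas and adipose tissue, in control (blue) and OA-AP (orange) samples, with a point for each library and a line at the group mean. Rrm2 lies at 8.52 CPM or above in the OA-AP pancreas and at 3.09 CPM or below in the control pancreas, while Mcm7, Cdc25b, Aurkb and Gins2 lie lower in OA-AP than in control adipose tissue.

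The pancreas groups also differed in their makeup. Of the 15 acinar markers 10 were lowered and 0 raised, and their share of the counts was 54.4% and 56.0% in controls and 42.8% to 45.4% in OA-AP. With library totals in place of TMM factors, the median over the tested pancreas genes moved from 0.04 to 0.75 on the log2 scale, and Rrm2, Mcm7, Mcm3 and Pcna were called raised, while the log2 fold change of Mcm2 turned to 0.18, below that median. Summed neutrophil markers were at 1.80 and 2.79 CPM in controls and 14.3, 4.63 and 106 CPM in OA-AP, with 0 of 7 tested markers called. The high value is that of OA-AP 3 alone. Macrophage markers summed to 45.3 to 92.4 CPM in controls and 72.4 to 76.3 CPM in OA-AP. The 12 T and B lymphocyte markers summed to 0.798 to 2.40 CPM in controls and 0.858 to 1.15 CPM in OA-AP, and none was tested. Their part in the result was not tested.

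In adipose tissue 4 proliferation genes were lowered, Cdc25b and Aurkb of G2/M and Mcm7 and Gins2 of S phase, and 0 were raised. Of the 36 members 34 were tested. The 4 lowered were 11.8% of these, against 13.0% of all 15839 genes tested, and 12.1% of all genes were raised. At an unadjusted p under 0.05, 7 members were lower and 1 was higher, 23.5% of the members tested against 47.4% of all genes, and DESeq2 called 3 lowered and 0 raised. Every OA-AP library lay below every control library for 8 of the 34 members (23.5%), against 26.0% of all genes, and above every control library for 1, Pcna, against 26.4% of all genes. The share lowered was thus near that of all genes, while the share raised and the share lying above every control were under it.

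Cdc25b encodes the phosphatase that activates the cyclin-dependent kinase 1 at the onset of mitosis (ENSMUSG00000027330, chromosome 2, 131186949 to 131198497). It was at 12.4, 13.9 and 13.1 CPM in control adipose tissue and at 9.43, 6.54 and 8.33 CPM in OA-AP. The groups did not overlap, and the log2 fold change was −0.70 (standard error 0.16, 95% interval −1.07 to −0.33, adjusted p = 0.0139 by edgeR's quasi-likelihood test). Leaving out 1 library at a time kept the call in 5 of 6 fits, and without OA-AP 2 the log2 fold change was −0.56, short of 1.5-fold. Its level per length in control adipose tissue, 3.52 CPM per kb, was the highest of the 24 G2/M genes, the next being Bub1b at 1.03 CPM per kb.

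Aurkb (ENSMUSG00000020897, chromosome 11, 69045647 to 69051664) was at 1.73, 1.74 and 1.09 CPM in controls and at 0.570, 0.673 and 0.960 CPM in OA-AP. The groups did not overlap, although control 3 and OA-AP 3 lay close together. The log2 fold change was −1.04 (standard error 0.32, adjusted p = 0.0391 by edgeR's quasi-likelihood test). The call was lost in 4 of the 6 fits that left out 1 library, those without control 1, control 2, OA-AP 1 or OA-AP 2, at adjusted p values up to 0.120, and with DESeq2 (adjusted p = 0.0621). Aurka, the related kinase of the spindle poles, was at 2.18, 1.69 and 1.29 CPM in controls and at 1.66, 1.97 and 1.72 CPM in OA-AP. These overlapped, with a log2 fold change of 0.05 that turned to −0.10 with library totals, to −0.11 without control 3 and to −0.02 without OA-AP 2.

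Mcm7 had the smallest p among the members in adipose tissue. It was at 34.3, 30.3 and 35.1 CPM in controls and at 25.2, 19.1 and 19.9 CPM in OA-AP, without overlap. The log2 fold change was −0.63 (standard error 0.13, 95% interval −0.94 to −0.33, adjusted p = 0.00953 by edgeR's quasi-likelihood test). This is close to the fold threshold, and without control 3, OA-AP 2 or OA-AP 3 the log2 fold change was −0.58, −0.55 and −0.58, all short of 1.5-fold at adjusted p values of 0.0408 or less by the same edgeR test. The other MCM genes did not share this direction. Mcm2, Mcm3, Mcm4, Mcm5 and Mcm6 had log2 fold changes of 0.36, 0.20, 0.35, 0.03 and 0.16, none of them called. Mcm7 shares 7.25% of its exon bases with Ap4m1 on the other strand, which had a log2 fold change of −0.47 in the same tissue, and the microRNA genes Mir25 and Mir93 lie inside it.

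Gins2, a subunit of the GINS complex that joins the helicase at firing origins (ENSMUSG00000031821, chromosome 8, 120578633 to 120589304), was at 5.83, 5.00 and 3.68 CPM in controls and at 2.18, 2.98 and 3.13 CPM in OA-AP. The groups did not overlap, and the log2 fold change was −0.80 (standard error 0.24, adjusted p = 0.0378 by edgeR's quasi-likelihood test). The call was kept in 1 of the 6 fits that left out 1 library, that without control 3, and the highest adjusted p, 0.130, came without control 1. Gins2 shares 67.3% of its exon bases with Gse1 on the other strand, so its count is uncertain if reads were counted without regard to strand. Gse1 had a log2 fold change of −0.18 in adipose tissue and was not called there.

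Pcna was the 1 member with an adjusted p under 0.05 that was higher in adipose tissue, and it stayed under 1.5-fold. It was at 42.8, 42.0 and 38.6 CPM in controls and at 59.7, 46.2 and 58.7 CPM in OA-AP. The groups did not overlap, OA-AP 2 being nearest to the controls, and the log2 fold change was 0.42 (standard error 0.12, adjusted p = 0.0295 by edgeR's quasi-likelihood test). The adjusted p stayed under 0.05 in 1 of the 6 fits that left out 1 library, that without OA-AP 2, was 0.0544 to 0.0928 in the others, and was 0.0887 with library totals. Rrm2 was at 2.21, 2.75 and 1.67 CPM in controls and at 1.61, 2.07 and 1.57 CPM in OA-AP, with overlap and a log2 fold change of −0.33. Rrm1, Tk1 and Cdc6, the loader of the helicase, had log2 fold changes of −0.24, −0.01 and 0.18. Summed over the 12 S phase genes, control adipose tissue held 180, 170 and 165 CPM and OA-AP tissue 194, 146 and 198 CPM. The controls lay between the lowest and the highest OA-AP library.

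**Figure D2:**
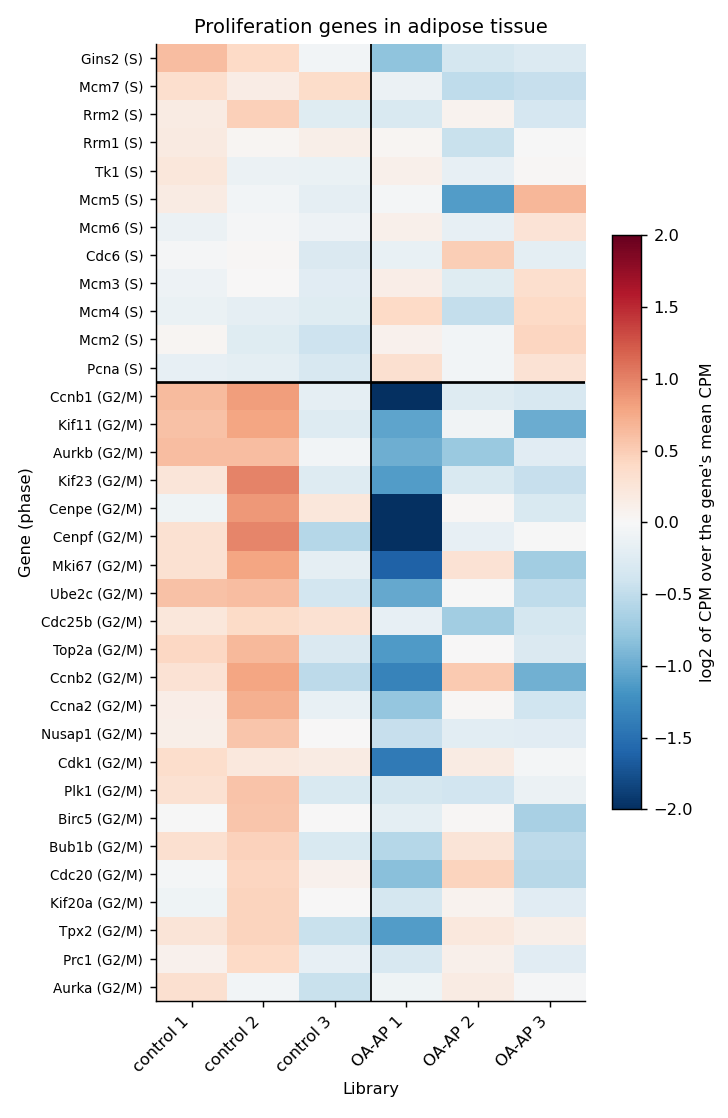
Log2 of each library's CPM over the mean CPM of the gene in the 6 adipose libraries (colour, limited to −2 and 2), for the 34 tested genes, S phase above and G2/M below the black line, ordered by log2 fold change. In the G2/M block control 2 is the darkest red column and OA-AP 1 the darkest blue column, while in the S phase block OA-AP 2 holds the lowest value for 7 of 12 genes.

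Of the 22 G2/M genes tested in adipose tissue, 2 were lowered (9.09%, against 13.0% of all genes), and for 27.3% every OA-AP library lay below every control, against 26.0% of all genes. An unadjusted p under 0.05 was found for 22.7% of them, against 47.4% of all genes. The log2 fold change was below 0 for 21 of the 22 tested, with Aurka the exception, and its median was −0.61, while 51.2% of all tested genes were below 0 with a median of −0.01. Among the 12 S phase genes 5 were below 0, with a median of 0.09. Since these genes move together between libraries, 21 of 22 does not count as 22 separate observations. Control 2 held the highest value for 19 of the 22 genes and OA-AP 1 the lowest for 18.

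The summed level of the 24 G2/M genes shows this spread. It was 65.4, 81.2 and 51.6 CPM in controls and 33.6, 52.6 and 42.2 CPM in OA-AP. The groups overlapped, since OA-AP 2 was above control 3. The means were 66.1 ± 14.8 CPM (SD, n = 3) and 42.8 ± 9.47 CPM (SD, n = 3). Without control 2 the median log2 fold change of the G2/M genes was −0.38, and 21 were below 0. Without OA-AP 1 the median was −0.45. Of all 36 members' summed CPM, the G2/M genes made up 26.7%, 32.3% and 23.8% in controls and 14.8%, 26.4% and 17.5% in OA-AP.

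Among the cyclins and kinases, Ccnb1, the main mitotic cyclin, had the largest log2 fold change of the members at −1.20 (adjusted p = 0.117 by edgeR's quasi-likelihood test). Ccnb1 had 29, 29 and 18 counts in controls and 2, 12 and 11 in OA-AP, so that OA-AP 1 lay under the floor of 3 counts. Cdk1, its kinase partner, was at −0.52, Ccnb2 at −0.61, Ccna2 at −0.61 and Plk1 at −0.50, and none of these was called. Kif11, the motor that pushes the spindle poles apart, was at 2.58, 2.97 and 1.43 CPM in controls and at 0.829, 1.63 and 0.859 CPM in OA-AP. Its groups overlapped at control 3 and OA-AP 2, and its log2 fold change was −1.06 (standard error 0.39, adjusted p = 0.0692 by the same edgeR test). Kif11 passed the thresholds without OA-AP 2 (adjusted p = 0.0276) and with library totals (adjusted p = 0.0497, both by edgeR).

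Kif23, a motor needed for the final separation of the daughter cells, was at 2.40, 4.03 and 1.70 CPM in controls and at 0.933, 1.63 and 1.46 CPM in OA-AP. Its groups did not overlap, and the log2 fold change was −0.998 (standard error 0.38, adjusted p = 0.0763 by edgeR's quasi-likelihood test). Without control 2 it was −0.59 (adjusted p = 0.227 by the same edgeR test). The other 4 genes of the spindle motors and spindle assembly, Kif20a, Tpx2, Nusap1 and Prc1, had log2 fold changes between −0.54 and −0.26. Mki67 was at 6.86, 9.62 and 4.90 CPM in controls and 1.81, 6.78 and 3.43 CPM in OA-AP, and Top2a, the topoisomerase that untangles chromosomes, at 4.83, 5.68 and 2.96 CPM against 1.66, 3.65 and 2.98 CPM. Both overlapped between the groups, and their log2 fold changes were −0.82 and −0.69 (adjusted p = 0.212 and 0.160 by the same edgeR test). Mki67 and Kif11 were the members called lowered without OA-AP 2. The 6 tested genes of the spindle checkpoint, kinetochore and anaphase, Bub1b, Birc5, Cenpe, Cenpf, Cdc20 and Ube2c, lay between −0.92 and −0.36. Cdc25c, with 1 to 7 counts per library, and Bub1, with 2 to 21, were not tested.

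**Figure D3:**
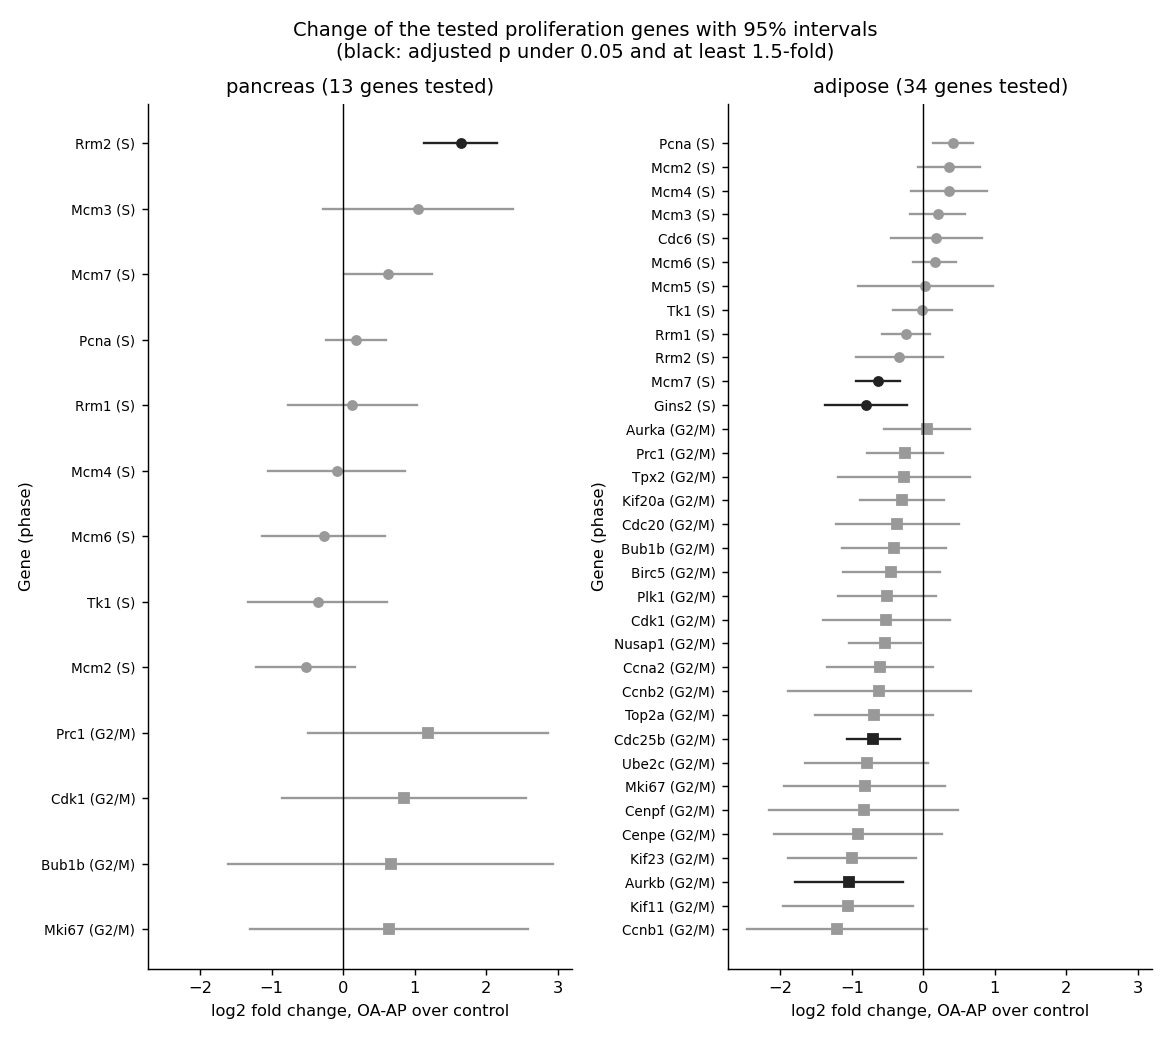
Log2 fold change of OA-AP over control (x axis) for every tested member, with its 95% interval from edgeR's quasi-likelihood fit as a bar, in the pancreas (left, 13 genes) and adipose tissue (right, 34 genes), with circles for S phase and squares for G2/M. Black marks the called genes, Rrm2 in the pancreas and Mcm7, Gins2, Cdc25b and Aurkb in adipose tissue, and most other intervals cross 0.

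Markers of immune and stromal cells moved between the adipose groups as well. The T and B lymphocyte markers summed to 17.6, 62.6 and 20.8 CPM in controls, highest in control 2, and to 5.44, 6.15 and 7.27 CPM in OA-AP. Of 12 such markers, 11 were tested and 8 were lowered, and none was at 0 in every library. The 9 fibroblast and mesothelial markers summed to 2771 to 3565 CPM in controls and 1630 to 2081 CPM in OA-AP, with 4 lowered. The neutrophil markers, of cells that no longer divide, summed to 17.4 to 36.1 CPM in controls and 187 to 210 CPM in OA-AP, with 6 of 7 tested raised. Macrophage markers summed to 1185 to 1512 CPM in controls and 1286 to 1942 CPM in OA-AP, with 4 of 10 raised and 1 lowered. The part of these cells in the levels of the proliferation genes was not tested. Without control 2, the library highest in both lymphocyte markers and G2/M genes, Cdc25b and Mcm7 were the 2 members called lowered, as they were without control 1 and without OA-AP 1.

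**Figure D4:**
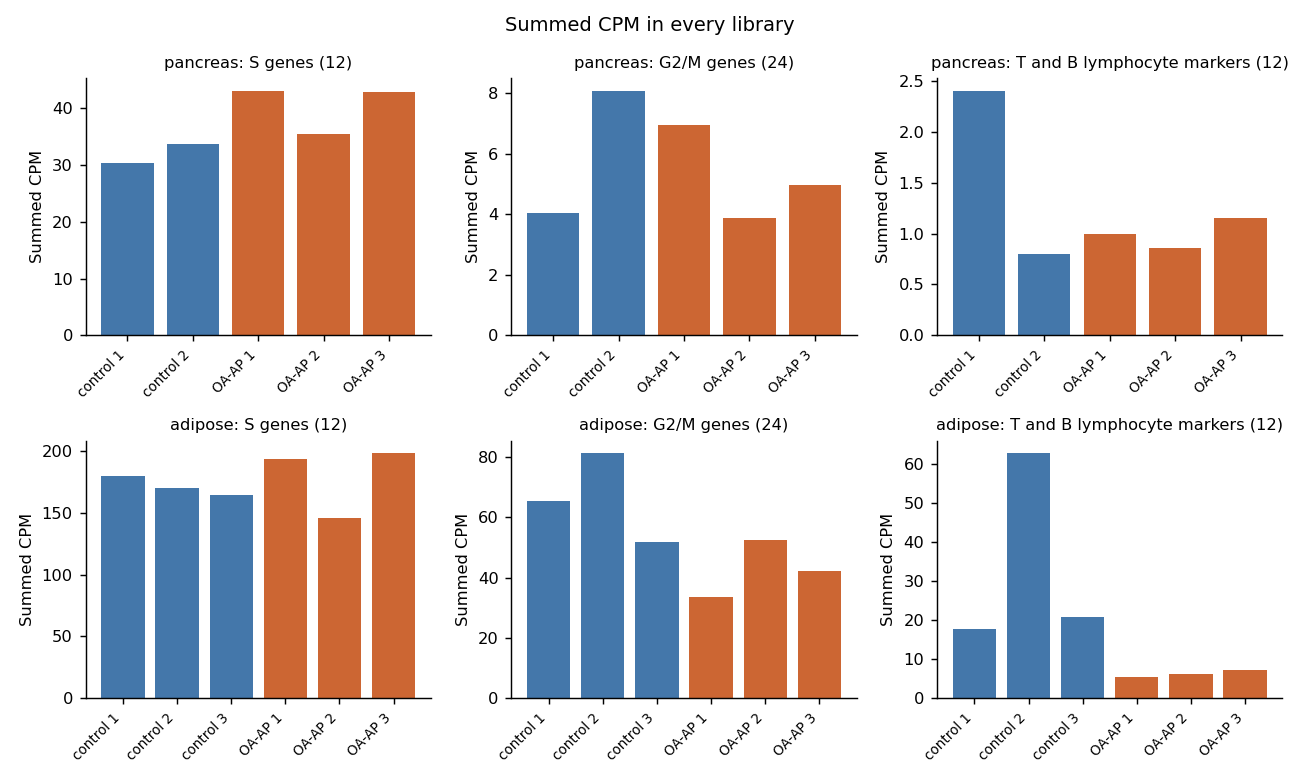
Summed CPM (y axis, from 0) of the 12 S phase genes, the 24 G2/M genes and 12 T and B lymphocyte markers in every library of the pancreas (top) and adipose tissue (bottom), with control bars in blue and OA-AP bars in orange. In adipose tissue control 2 is highest in both the G2/M sum (81.2 CPM) and the lymphocyte sum (62.6 CPM), and the scales differ between panels.

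Whether the change differed between the tissues was tested with the tissue by condition term over all 11 libraries, taken as independent, although the labels do not say whether a pancreas and an adipose sample came from 1 mouse. Of 35 members tested, 3 (8.57%) were called, Rrm2, Mcm7 and Aurka, against 20.6% of the 17046 genes tested. The log2 fold change of Rrm2 was higher in the pancreas than in adipose tissue by 1.98 (95% interval 1.23 to 2.73, adjusted p = 0.00193 by edgeR's quasi-likelihood test), and it stood in all 11 fits that left out 1 library. That of Mcm7 was higher in the pancreas by 1.27 (95% interval 0.64 to 1.91, adjusted p = 0.00919 by the same edgeR test). The estimates had opposite signs, 0.63 in the pancreas and −0.63 in adipose tissue, but Mcm7 was not called in the pancreas alone. A difference in change is thus shown, and a rise in the pancreas is not. The tissue difference of Mcm7 missed the threshold without pancreas control 2 (adjusted p = 0.0553 by the same edgeR test).

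The tissue difference of Aurka was −1.95 (95% interval −3.25 to −0.65, adjusted p = 0.0371 by edgeR's quasi-likelihood test). It rests on few reads, 9 and 10 counts in the control pancreas and 7, 3 and 3 in the OA-AP pancreas, where it was too low to be tested alone. The call was lost in 9 of the 11 fits that left out 1 library, all but those without pancreas OA-AP 1 or adipose control 1, and with library totals, with no filter and with the replicate numbers as a block. The uncalled members with the smallest p were Mcm2 at −0.87, Prc1 at 1.47 and Cenpf at 6.48, the last a fitted value against control pancreas libraries with 0 counts and no measure of size.

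Levels between the tissues were scaled apart and are set side by side only as a description. In controls 35 of the 36 genes had a higher CPM in adipose tissue than in the pancreas, where acinar transcripts take most of the counts, and Rrm2 was the exception at a mean of 3.04 CPM in the pancreas and 2.21 CPM in adipose tissue. With TMM factors over all 11 libraries 4 genes were higher in the control pancreas, Aurka, Mcm2, Rrm2 and Tk1, and 32 in control adipose tissue. In adipose tissue Pcna again had the highest level per length, 17.1 CPM per kb in controls, followed by Mcm7 at 7.51, Mcm4 at 5.48 and Mcm6 at 3.74 CPM per kb.

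Other genes of the cell cycle were taken from 4 lists that hold no member. Of the 17 tested cell cycle inhibitors and restraining genes in the pancreas, 9 were raised and 1, Cdkn1c, was lowered, 52.9% raised against 16.2% of all genes, and their median log2 fold change was 1.12. The inhibitor of cyclin-dependent kinases Cdkn1a rose from 3.52 and 2.39 CPM to 184, 125 and 241 CPM, by 5.94 on the log2 scale (adjusted p = 0.000132 by edgeR's quasi-likelihood test). Gadd45b, a stress-induced growth arrest gene, rose by 3.39 and the atypical cyclin Ccng1 by 1.12 (adjusted p = 0.00242 and 0.00288 by the same edgeR test). Cdkn1c was at 2.32 and 1.70 CPM in controls and 0.472, 0.457 and 0.314 CPM in OA-AP.

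Of the other pancreas lists, the 20 tested genes of replication had 1 raised, Dbf4 of the origin-firing kinase, and 3 lowered, among them Rfc5 and Rfc3 of the clamp loader, with a median of 0.04 equal to that of all genes. These were 5% raised and 15% lowered, against 16.2% and 13.5% of all genes. Dbf4 was at 0.257 and 0.0997 CPM in controls, at or under the floor of 3 counts. In OA-AP it was at 0.998, 0.915 and 1.62 CPM. Dbf4 entered the test through the OA-AP libraries, so its call is no evidence of a direction. The 15 tested genes of mitosis had 2 raised (13.3%) and 3 lowered (20%), against the same shares of all genes. Stmn1, which destabilizes microtubules, rose by 3.28 from 1.03 and 1.20 CPM to 10.2, 8.01 and 14.3 CPM, and the chromatin protein gene Hmgb2 by 1.95. Spc24 of the kinetochore fell by 3.92, from 2.83 and 3.39 CPM to 0.0525, 0.286 and 0.261 CPM, OA-AP 1 lying under the floor of 3 counts. Cks1b and Anln, which encodes an actin-binding protein of the cleavage furrow, fell too, with log2 fold changes of −1.63 and −2.24. Anln was at 1.03 and 1.40 CPM in controls and at 0.105, 0.114 and 0.523 CPM in OA-AP. For Anln, OA-AP 1 and OA-AP 2 lay under the floor. Of 16 tested cell cycle transcription factors 0 were raised by edgeR's test, against 16.2% of all genes. An unadjusted p under 0.05 was found for 6 of the 16 (37.5%), against 44.8% of all genes. Lowered were 3 (18.8%, against 13.5%), with log2 fold changes of −3.23 for the activator E2f2, −0.78 for Tfdp2 and −0.62 for the DREAM subunit gene Lin37. E2f2 was at 1.72 and 2.49 CPM in controls and at 0.0525, 0.286 and 0.314 CPM in OA-AP, OA-AP 1 lying under the floor. Spc24, Anln and E2f2 entered the test through the control libraries, and the sizes of their falls are uncertain.

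In adipose tissue the other genes of mitosis had 2 raised and 9 lowered among 37 tested, 24.3% lowered against 13.0% of all genes, with a median log2 fold change of −0.52. Anln was at 22.8, 33.3 and 37.7 CPM in controls and at 6.27, 9.81 and 7.98 CPM in OA-AP, and fell by 1.96 on the log2 scale (adjusted p = 0.00162 by edgeR's quasi-likelihood test). Ncapd2, a condensin subunit gene, fell by 0.86 and Stmn1 fell by 1.08 (adjusted p = 0.00247 and 0.00836 by the same edgeR test). Cks2, a partner of cyclin-dependent kinases, and the motor gene Kif22 were the 2 raised. The other genes of replication had 1 raised, Tyms (thymidylate synthase), and 5 lowered of 30 tested, among them the histone chaperone subunit gene Chaf1b and the polymerase genes Pole and Pola1, with a median of −0.21. These were 3.33% raised and 16.7% lowered, against 12.1% and 13.0% of all genes.

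Of 21 tested cell cycle transcription factors in adipose tissue, E2f4 and E2f3 were raised, by 0.81 and 0.60 on the log2 scale, and the retinoblastoma relative Rbl1 and the activator E2f1 fell, with log2 fold changes of −0.81 and −0.69. The share called was 9.52% in each direction, against 12.1% of all genes raised and 13.0% lowered. Of the 20 inhibitors tested, 5 were raised (25%, against 12.1% of all genes) and 7 lowered (35%, against 13.0%), with a median of −0.12. Cdkn2d, an inhibitor of the G1 kinases, rose by 1.11, Gadd45b by 0.89 and Gadd45g by 1.38, while Cdkn1b fell by 0.72, the restraining cyclin gene Ccng2 fell by 1.09 and the checkpoint kinase gene Chek2 fell by 1.35. The highest adjusted p among these 6 inhibitors was 0.00823 by edgeR's quasi-likelihood test.

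**Figure D5:**
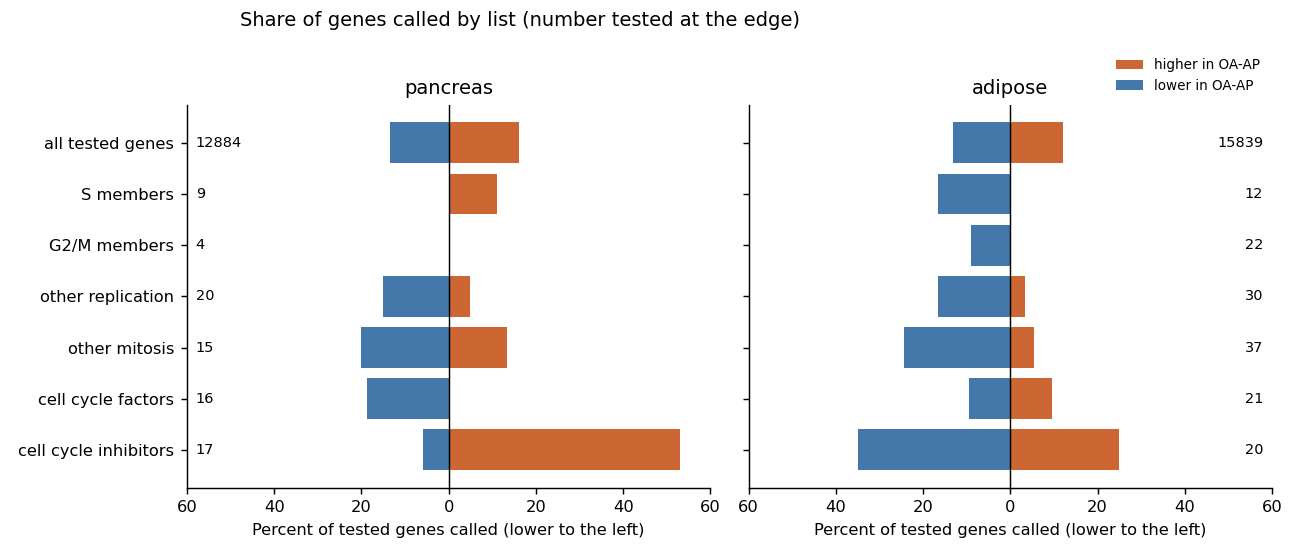
Percent of tested genes called higher (orange, to the right) and lower (blue, to the left) in OA-AP, for all tested genes, the S phase and G2/M members and 4 lists of other cell cycle genes, in the pancreas (left) and adipose tissue (right), with the number tested at the edge of each panel. Cell cycle inhibitors in the pancreas have 52.9% higher, against 16.2% of all tested genes, and other mitosis genes in adipose tissue 24.3% lower, against 13.0%.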

How the data were processed

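The authors deposited raw counts of reads on genes for every sample, with no normalization, in 1 table for each tissue. Per the labels, reads were processed with Trim Galore 0.6.6, fastp 0.20.1 and featureCounts 2.0.1 on GRCm38, and the methods of the study name STAR as the aligner. The strand setting and the annotation release of the counting are not given in the sources used here. Genes were matched by symbol, and the pancreas table also gives gene lengths, which served for CPM per kb.

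Each tissue was fitted apart in R 4.3.3 with edgeR 4.0.16 (filterByExpr, TMM factors, robust quasi-likelihood test, Benjamini-Hochberg over 12884 pancreas and 15839 adipose genes). A gene was called at an adjusted p under 0.05 and a change of 1.5-fold or more. Standard errors are the log2 fold change over the square root of the F statistic. The tissue by condition test used the 11 libraries. DESeq2 1.42.0, its size factors, library totals, TMM without acinar markers, other filters and folds, each library left out and the replicate number as a block were alternatives. The code was tested on simulated data.

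Exon overlaps were taken from GENCODE M21 and promoters from RefSeq. Libraries of a group differed by more than counting noise (lowest chi-square per degree of freedom 6.91). The p-values set the difference between the groups against the spread between these libraries as edgeR estimated it. The intervals of log2 fold changes carry the spread between libraries. The floor of 3 counts covers counting error only, since without molecular identifiers several reads can come from 1 molecule. The members and lists were chosen with earlier results of these data known. Full values are given for members called and the 3 uncalled members with the smallest p, and up to 3 called genes per direction are named from each list. Some items under this rule are not named here. Mki67, Top2a, Aurka in adipose tissue, other members named with values and the genes overlapping a member were added after their values were seen.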

Additional observations from a re-analysis of the deposited data

Results flagged for a closer look

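The change between control and OA-AP differed between the tissues for 3 proliferation genes, by the tissue by condition term of edgeR's quasi-likelihood test. For Rrm2 the log2 fold change in the pancreas minus that in adipose tissue was 1.98. For Mcm7 this difference was 1.27. For Aurka it was −1.95, at 3 to 10 counts per pancreas library, and the call was lost in 9 of the 11 fits that left out 1 library.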

How the results depend on the processing

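With library totals alone, 4 members were raised in the pancreas in place of 1 and 6 in place of 3 differed between the tissues, the log2 fold change turned to 0.18 for Mcm2 in the pancreas and to −0.10 for Aurka in adipose tissue, and the mean summed CPM of the S phase genes was 180 in control and 170 in OA-AP adipose tissue (172 and 180 with TMM), 23.8 in the control pancreas and 49.3 in the OA-AP pancreas. The G2/M sum of the pancreas turned as well, from 6.05 in control and 5.26 in OA-AP to 4.41 and 6.48. These totals moved the median of all tested genes to 0.75 in the pancreas and to −0.17 in adipose tissue. With no filter 2 members were raised in the pancreas. With any fold change 1 member, Pcna, was raised in adipose tissue, and with a fold change of at least 2 only Aurkb (1 member) was lowered there. Leaving out each library in turn gave 1 to 2 raised and 0 to 1 lowered in the pancreas, 0 to 1 raised (Mcm4 without OA-AP 2) and 2 to 3 lowered in adipose tissue, and 1 to 3 that differed between the tissues (1, Rrm2, without pancreas control 2). The log2 fold change of Aurka in adipose tissue ranged from −0.11 to 0.27. The G2/M genes below 0 in adipose tissue numbered 16 to 23 of those tested under the alternatives, a count added after the data were seen. No source used here says that same-numbered samples are paired, and their deviations from the group means correlated at −0.16 to 0.09. With this replicate block 1 member was raised and 0 lowered in the pancreas, 0 were raised and 3 (Cdc25b, Kif11 and Mcm7) lowered in adipose tissue, where Aurkb and Gins2 were no longer called (adjusted p = 0.0951 and 0.0938 by edgeR), and 2 differed between the tissues, with Aurka no longer called. The cause of these moves was not tested. Counts of 0 to 20 per library for the 23 untested members limit what the pancreas can show.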

Other observations

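Genes that share exon bases with a member were read beside it, and were chosen after their values were seen. Gse1, which covers 67.3% of the exon bases of Gins2, rose by 1.34 on the log2 scale in the pancreas (adjusted p = 0.000899 by edgeR's quasi-likelihood test), while Gins2 had 1 to 3 counts per pancreas library. Elovl1, a fatty acid elongase gene that shares 2.84% of the exon bases of Cdc20, rose in both tissues, by 0.77 in the pancreas and 0.93 in adipose tissue. Cdc23, a subunit gene of the anaphase-promoting complex, shares 29.3% of the exon bases of Kif20a and had a log2 fold change of 0.05 in adipose tissue. In all, 13 of the 36 members share exon bases with another gene. There are 9 pseudogenes named after 7 of the members, and the highest count of any of them in a pancreas library was 21, for Ccnb2-ps, against at most 4 for Ccnb2 itself.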
